A study of Mus musculus with 4 samples.

Results

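The nuclear-encoded subunits of the respiratory chain and the ATP synthase were followed through single-cell libraries of inguinal fat. The members were the genes whose symbols follow the naming of the 5 complexes (Nduf, Sdh, Uqcr, Cox4 to Cox8 and Atp5 symbols) and which held at least 100 UMIs over the 4 count tables. A UMI, or unique molecular identifier, stands for 1 captured mRNA molecule, and CPM gives a gene's UMIs per 1000000 UMIs of the same cells. Of 31053 genes, 79 met both conditions: 36 of complex I, 4 of complex II, 8 of complex III, 15 of complex IV and 16 of complex V. Of the rows that matched by name and missed the minimum, Cox8b had 27 UMIs, Cox8c had 2, a second row of the symbol Atp5o had 1 and Cox7b2 had 0. Just inside it, Cox4i2 had 397 UMIs. The assignment goes by name, so Ndufa4, today counted with complex IV, stands with complex I here, and Cox7a2l, a supercomplex factor, and Atp5s are included.

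The cold group was 2 libraries from C57BL/6 mice aged 8 weeks that were held at 4 °C for 24 h. It was set against 2 libraries from mice of that strain and age held at room temperature (RT) for 24 h. All 4 were droplet libraries of the stromal vascular fraction, the non-fat cells freed by collagenase, of the fourth inguinal white fat depot, which in mice also holds mammary gland. The labels do not say whether the libraries of a group came from separate animals, so the spread between them may be technical, and they give neither sex nor the temperature of the room.

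The respiratory chain passes electrons from NADH through complex I, or from succinate through complex II, to ubiquinone and on through complex III and cytochrome c to complex IV, which reduces oxygen. Complexes I, III and IV pump protons across the inner mitochondrial membrane, and complex V makes ATP from the gradient. In cold-exposed fat this machinery is best known for fuelling heat production in brown and beige fat cells, where the uncoupling protein Ucp1 lets protons back in. Such cells were barely represented here: Ucp1 had 7 and 8 UMIs in the cold libraries against 5 and 4 UMIs in the RT libraries, and a list of 6 fat cell markers summed to 6.68 and 4.15 CPM in the cold libraries against 7.45 and 2.77 in the RT libraries.

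The cold libraries held 4840 and 3871 barcodes and the RT libraries 6339 and 4168, with 35198164 to 55160902 UMIs per library, and any 2 libraries shared 5 to 10 barcodes. Filters left 15197 cells in 41 clusters. Marker lists named 13 classes, to be read as X-like groups and not as sorted cell types, and 10 of them, with at least 20 cells in every library, were tested. The classes took 12253 cells. The other 2944 lay in clusters that carried the markers of more than 1 class, whose leading genes went against their name, or that met no list. They held 38.03% and 27.44% of kept UMIs in the cold libraries against 19.35% and 30.29% in the RT libraries.

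Promoter windows (300 bases, from 250 before to 50 after the gene start, RefSeq, GRCm38.p6) were found for 64 of the 79 members. Searched on both strands were 3 motifs known from promoters of respiratory genes: the NRF1 motif (its matches are capitalised in the windows below), CCGGAAG of ETS factors such as GABP, and AAGATGGC of YY1. At least 1 of them stood in 53.6% of the 69 member windows and in 14.7% of all 32851 windows. The NRF1 letters were in 26.1% of member windows and 4.6% of all windows, the ETS letters in 23.2% and 8.9%, and the YY1 letters in 13.0% and 2.7%. By complex, the share with any of them was 52.9% for complex I, 60.0% for complex III, 27.3% for complex IV and 62.5% for complex V, and all 3 windows of complex II had one. A match describes letters, not binding.

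The windows of 4 members are shown. They are the isoform pair Cox6b2 and Cox6b1, whose highest levels lay in different cell classes, and Uqcrc1 and Ndufa4, which had the most unadjusted differences with cold. The windows lie at chr7:4753045-4753344 (minus strand), chr7:30626065-30626364 (minus strand), chr9:108936398-108936697 (plus strand) and chr6:11907401-11907700 (minus strand). They are written 5′ to 3′ along the gene's strand, with motif matches in capitals. Cox6b1 holds 1 ETS match on the opposite strand, at position 223 of the window, and Uqcrc1 holds NRF1 matches at positions 256 and 281, just past the gene start. No letters of the 3 motifs were found in the Cox6b2 and Ndufa4 windows.
Cox6b2: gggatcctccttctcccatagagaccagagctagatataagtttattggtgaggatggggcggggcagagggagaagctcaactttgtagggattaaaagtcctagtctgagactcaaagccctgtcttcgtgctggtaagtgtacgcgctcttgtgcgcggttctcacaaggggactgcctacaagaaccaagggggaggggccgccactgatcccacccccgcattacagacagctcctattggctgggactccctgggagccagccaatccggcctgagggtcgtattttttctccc
Cox6b1: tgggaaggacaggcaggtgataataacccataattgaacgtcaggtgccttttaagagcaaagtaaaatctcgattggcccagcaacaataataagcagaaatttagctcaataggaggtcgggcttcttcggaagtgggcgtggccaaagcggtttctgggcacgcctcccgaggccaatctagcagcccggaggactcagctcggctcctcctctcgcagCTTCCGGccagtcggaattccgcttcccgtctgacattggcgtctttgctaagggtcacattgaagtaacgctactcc
Uqcrc1: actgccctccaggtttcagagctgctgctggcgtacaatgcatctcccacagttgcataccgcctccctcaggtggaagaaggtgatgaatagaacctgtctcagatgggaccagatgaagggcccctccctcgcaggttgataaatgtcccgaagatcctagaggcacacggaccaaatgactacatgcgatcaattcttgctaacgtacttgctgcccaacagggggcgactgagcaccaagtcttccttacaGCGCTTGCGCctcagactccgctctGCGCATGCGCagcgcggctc
Ndufa4: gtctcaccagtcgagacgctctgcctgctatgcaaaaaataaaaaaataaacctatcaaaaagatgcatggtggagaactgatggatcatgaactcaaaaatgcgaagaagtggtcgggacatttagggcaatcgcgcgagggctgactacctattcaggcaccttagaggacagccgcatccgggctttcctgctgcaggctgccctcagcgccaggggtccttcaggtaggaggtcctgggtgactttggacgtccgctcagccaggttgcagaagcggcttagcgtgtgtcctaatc

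Summed over all 79 members, respiratory chain mRNAs were most abundant in luminal hormone-sensing cells, a mammary epithelial class, and in pericyte/smooth muscle cells, and least abundant in neutrophils. The summed level, in member UMIs per 10000 UMIs of the class, was 322.7 ± 4.94 and 283.6 ± 25.2 in the first 2 classes (mean ± SD over the 4 libraries, here and below). Basal/myoepithelial cells had 196.0 ± 24.6, T cells 194.0 ± 12.7, NK cells 192.9 ± 7.47, luminal alveolar progenitors 185.6 ± 17.4 and vascular endothelial cells 184.5 ± 1.98. Dendritic cells had 166.8 ± 8.78, B cells 164.7 ± 16.9, macrophages/monocytes 162.7 ± 8.03, Schwann cells 144.7 ± 11.7, fibroblasts and adipose progenitors 139.9 ± 5.61 and neutrophils 94.9 ± 18.5.

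All 4 libraries of the luminal hormone-sensing class lay above those of the pericyte/smooth muscle class, and these above those of the basal class. Endothelial libraries lay above dendritic ones, and fibroblast libraries above neutrophil ones, while the other neighbours in this order overlapped. The classes were made by clustering these cells, so their levels are a description with no test. Complex I summed to 102.4 ± 3.59 per 10000 UMIs in luminal hormone-sensing cells and 45.4 ± 2.45 in fibroblasts, complex IV to 89.6 ± 2.52 and 37.7 ± 0.49, and complex V to 90.7 ± 2.72 and 39.1 ± 2.25. Depth differed too: the median luminal hormone-sensing cell held 17215.5 and 18520.0 UMIs in the cold libraries and 23533.0 and 20508.0 UMIs in the RT libraries, and the median neutrophil 1617.5 and 1620.0 UMIs in the cold libraries and 1136.0 and 1589.0 UMIs in the RT libraries. The part of depth in the order was not tested.

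**Figure D1:**
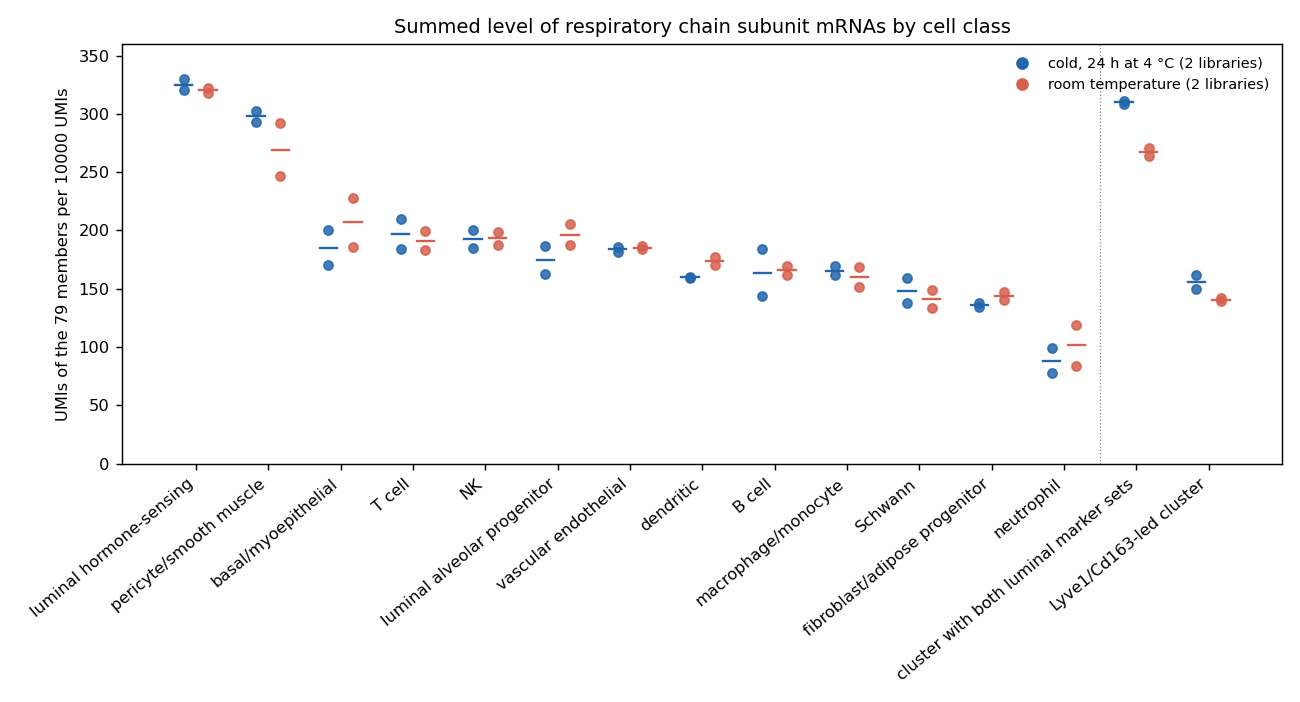
Member UMIs per 10000 UMIs (y axis) in each library, by cell class (x axis), with cold libraries in blue and RT libraries in red. The luminal hormone-sensing class is highest, at 322.7 on average, and neutrophils are lowest, at 94.9.

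Member by member, the luminal hormone-sensing class was highest for 41 of 79 and the pericyte/smooth muscle class for 29, and neutrophils were lowest for 59. In complex I, Ndufa4 had 1037.0 ± 32.3 CPM in luminal hormone-sensing cells and 299.3 ± 60.2 in fibroblasts. Ndufc1, an accessory subunit, had 343.4 ± 13.8 CPM in luminal hormone-sensing cells and 17.6 ± 20.5 in neutrophils. Ndufa11, an accessory subunit of the membrane arm, had 228.8 ± 36.2 CPM in basal cells and 5.33 ± 10.7 in neutrophils. With neutrophils left out, the ratio of highest to lowest class was 3.48 for Ndufc1 and 2.33 for Ndufa11. Ndufa8 and Ndufc2, accessory subunits named after their values were seen, broke the usual order: they were highest in endothelial cells, at 325.9 ± 8.44 and 573.3 ± 46.4 CPM, against 199.5 ± 9.66 and 313.6 ± 14.5 in luminal hormone-sensing cells.

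In complex II, Sdhc, a membrane anchor of succinate dehydrogenase, had 219.3 ± 44.3 CPM in pericyte/smooth muscle cells and 54.2 ± 6.23 in fibroblasts. Sdhd, the other anchor, had 133.4 ± 6.66 CPM in luminal hormone-sensing cells and 40.7 ± 47.03 in Schwann cells, a wide spread on few cells. In complex III, the small subunits Uqcrb and Uqcr11 had 586.6 ± 34.2 and 653.2 ± 41.4 CPM in luminal hormone-sensing cells, against 211.8 ± 17.2 and 152.2 ± 6.97 in fibroblasts. In complex V, Atp5g1, Atp5g2 and Atp5g3 encode the c subunit of the proton-driven rotor. Atp5g1 had 413.5 ± 24.7 and Atp5g2 812.2 ± 106.1 CPM in luminal hormone-sensing cells, against 142.9 ± 22.4 and 268.2 ± 15.3 in fibroblasts. Atp5g3 was highest in pericyte/smooth muscle cells, at 408.6 ± 50.3 CPM, and had 137.5 ± 20.1 in fibroblasts.

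Complex IV has subunits with tissue-type isoforms, and with neutrophils left out the ratios of highest to lowest class of Cox4i2, Cox6a2, Cox6b2 and Cox7a1 were the largest of the 79. These ratios divide by few or no UMIs. Cox4i2 had 0 UMIs in NK and dendritic cells, and Cox6a2 had 0 in dendritic and pericyte/smooth muscle cells. In their highest class Cox6a2 (8.42 CPM) and Cox7a1 (14.4 CPM) stayed below 20 CPM, the minimum set for naming uneven members. Cox4i2, the isoform of subunit 4 best known from lung and vessel wall (chr2:152754173-152765037, GRCm38), had 118.2 and 74.3 CPM in the cold libraries against 171.3 and 175.6 in the RT libraries of the pericyte/smooth muscle class, from 33 and 13 UMIs against 49 and 28 UMIs. It averaged 7.69 ± 1.47 CPM in endothelial cells and 0.09 ± 0.14 in luminal hormone-sensing cells. Of its 352 UMIs in kept cells, 123 were in the pericyte/smooth muscle class and 121 in a cluster with both endothelial and pericyte markers. The common isoform Cox4i1 had 1067.0 and 1102.7 CPM in the cold libraries against 1059.1 and 971.8 in the RT libraries of the pericyte/smooth muscle class, and 1650.5 ± 167.5 in luminal hormone-sensing cells.

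Cox6a2, the heart and muscle isoform of subunit 6a, lay almost wholly outside the named classes. A cluster of 78 cells led by Siglech, Cox6a2 and Klk1, which met both dendritic and plasma cell marker lists and so took no name, held 547 of its 641 UMIs in kept cells. Its level there was 712.6 and 908.3 CPM in the cold libraries against 1445.4 and 1066.7 in the RT libraries, on 14 and 19 cells against 8 and 37. The cold libraries lay below the RT libraries, but as a leading gene of the cluster it is given as a description. Among named classes NK cells were highest, at 8.42 ± 11.7 CPM from 12 UMIs. The common isoform Cox6a1 had 380.8 ± 18.8 CPM in luminal hormone-sensing cells and 176.0 ± 11.5 in fibroblasts.

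Cox6b2, known as the testis isoform of subunit 6b, was highest in dendritic cells, with 52.3 and 19.96 CPM in the cold libraries against 40.3 and 32.3 in the RT libraries. The groups overlapped. Within that class the Cd209a-led cluster had 73.7 and 47.1 CPM in the cold libraries against 54.5 and 53.96 in the RT libraries. Pericyte/smooth muscle cells had 25.1 and 34.3 CPM in the cold libraries against 28.0 and 12.5 in the RT libraries. These came from 7 and 6 UMIs in the cold libraries against 8 and 2 in the RT libraries. NK cells averaged 0.85 ± 1.71 CPM. The common isoform Cox6b1 was highest in luminal hormone-sensing cells, at 785.6 ± 23.9 CPM, and had 360.1 ± 20.3 in dendritic cells. Cox7a1, the heart and muscle isoform of subunit 7a that also serves as a brown fat marker, had 11.7 and 15.5 CPM in the cold libraries against 16.97 and 13.3 in the RT libraries of the luminal hormone-sensing class, with overlap. The common Cox7a2 had 681.0 ± 32.1 CPM there and 216.6 ± 3.97 in fibroblasts. Of the 23 UMIs of Cox8b in kept cells, the heart, muscle and brown fat isoform of subunit 8, 20 lay in a fibroblast cluster led by Postn, with 0 and 9 UMIs in the cold libraries against 10 and 1 in the RT libraries. The common Cox8a had 479.4 ± 20.7 CPM in fibroblasts.

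**Figure D2:**
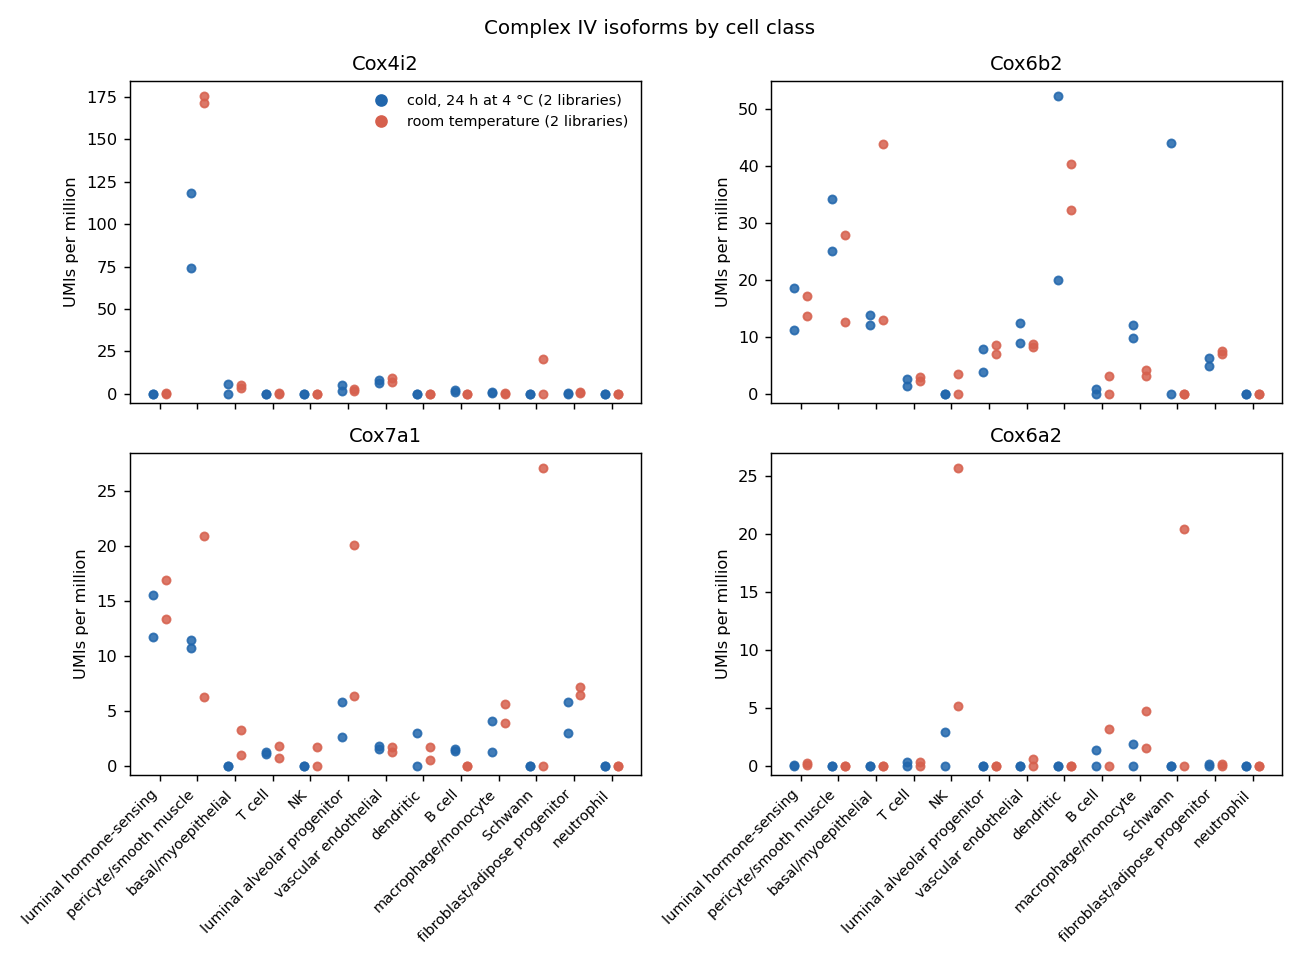
CPM (y axis, a scale for each panel) of 4 complex IV isoforms in each library, by cell class (x axis), with cold libraries in blue and RT libraries in red. Cox4i2 stands out in pericyte/smooth muscle cells, where the cold libraries lie at 118.2 and 74.3 and the RT libraries at 171.3 and 175.6.

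Over whole libraries the members had a higher summed level in both cold libraries than in both RT libraries. Their summed level over all kept cells was 245.0 and 250.6 per 10000 UMIs in the cold libraries against 212.5 and 207.4 in the RT libraries, a log2 ratio of 0.24 with no overlap. With every barcode counted it was 239.7 and 244.9 per 10000 UMIs in the cold libraries against 207.5 and 202.4 in the RT libraries. The log2 ratio was 0.28 for complex I, 0.11 for complex II, 0.24 for complex III, 0.25 for complex IV and 0.19 for complex V, each without overlap. With 2 libraries a group an exact permutation test cannot go below p = 0.333, so none is given. Fewer cells of a class and less RNA per cell cannot be told apart in a whole-library level.

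The mix of cells differed between the same libraries. Macrophages/monocytes gave 4.1% and 4.5% of kept UMIs in the cold libraries against 14.7% and 16.1% in the RT libraries. A cluster led by Lyve1 and Cd163, which met the macrophage list, lies outside this class. It gave 5.2% and 3.1% of kept UMIs in the cold libraries against 4.7% and 1.7% in the RT libraries. Luminal hormone-sensing cells, the class with the highest level, gave 25.3% and 36.5% of kept UMIs in the cold libraries against 26.8% and 11.2% in the RT libraries. Cells of a cluster with both luminal marker sets gave 28.4% and 15.6% of kept UMIs in the cold libraries against 10.97% and 20.3% in the RT libraries. After the data were seen, each of 40 clusters was held at its mean share of UMIs, with 1 cluster left out. The summed level was then 228.3 and 233.6 per 10000 UMIs in the cold libraries against 221.1 and 226.0 in the RT libraries. The log2 ratio was 0.05 where it was 0.24 before, still without overlap. Without the cluster with both luminal marker sets the summed level was 219.6 and 239.5 per 10000 UMIs in the cold libraries against 205.3 and 193.1 in the RT libraries, a log2 ratio of 0.20. The part of the mix in the whole-library difference was not tested.

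**Figure D3:**
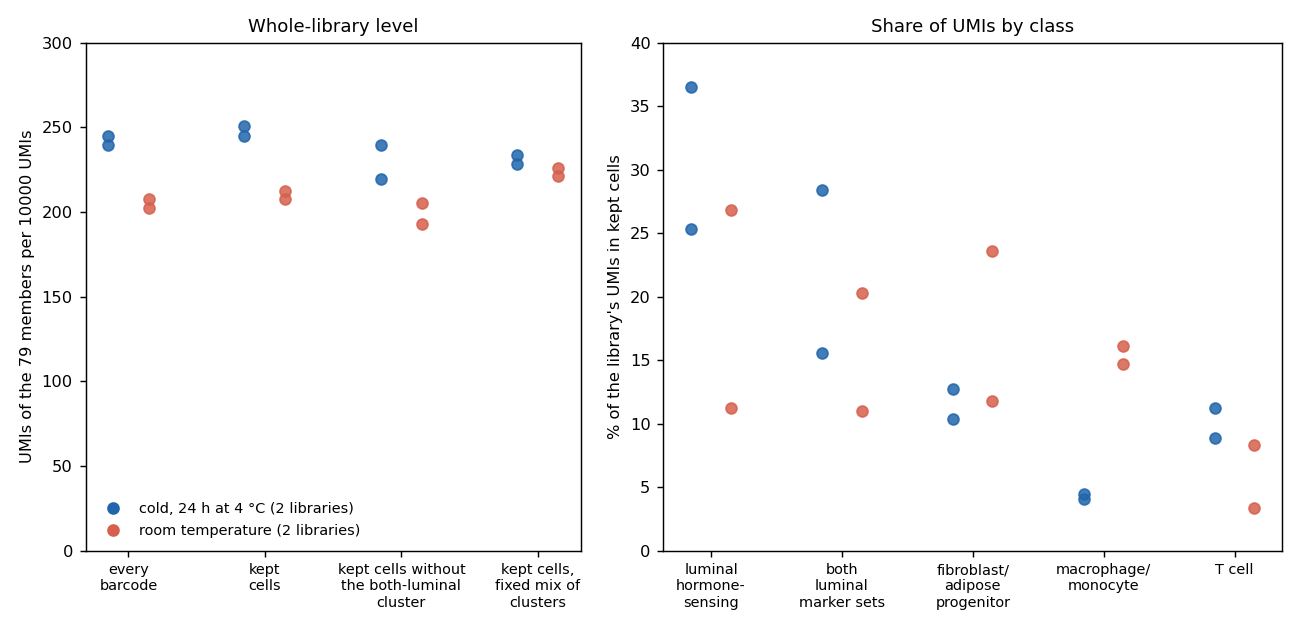
Member UMIs per 10000 UMIs of each library under several ways of counting, and the share of kept UMIs (%) from single classes or clusters, with cold libraries in blue and RT libraries in red. The log2 ratio of cold over RT is 0.24 over all kept cells and 0.05 with the mix of clusters held fixed, without overlap in either. The part of the mix was not tested.

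Within cell classes, no member passed the test for a cold effect. UMIs were summed per library and class and tested with edgeR's quasi-likelihood test, with p-values adjusted by the Benjamini-Hochberg method over all genes tested in the class and a threshold of 0.05. Over the 10 classes, 0 of 752 class-by-member tests were called, against 0.966% of all 83671 class-by-gene tests. An unadjusted p under 0.05 was reached by 34 member tests, 13 higher and 21 lower in the cold, or 4.521%, against 13.107% of all class-by-gene tests. DESeq2 called 0 members in each of the 10 classes. Both cold libraries lay above both RT libraries in 156 of the 752 tests (20.7%, against 21.2% of all class-by-gene tests). They lay below them in 168 (22.3%, against 23.4%), and the groups overlapped in 428. Both shares of the members were near those of all genes. All genes tested had a median log2 fold change between -0.02 and 0.02 in each of the 10 classes. The 10 classes come from the same 4 libraries, so directions shared between classes are not independent.

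In fibroblasts and adipose progenitors, 0 of 77 members tested were called (2.34% of all genes), and 6 had an unadjusted p under 0.05 (19% of all genes). The median log2 fold change was -0.05, with 48 of 77 below 0 (49.9% of all genes). Fold changes ran from Cox7a1 at -0.65 to Ndufv1 at 0.39 on the log2 scale. The summed level was 134.5 and 137.5 per 10000 UMIs in the cold libraries against 139.9 and 147.6 in the RT libraries. The Cxcl13-led cluster held most of the class in both cold libraries, and the Ptgs2- and Pi16-led cluster was the largest in both RT libraries.

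In luminal hormone-sensing cells, 0 of 77 members tested were called (0.00778% of all genes), and 2 had an unadjusted p under 0.05 (11.2% of all genes). Fold changes ran from Atp5f1 at -0.16 to Ndufa1 at 0.46 on the log2 scale, with a median of 0.05. The summed level was 320.8 and 329.6 per 10000 UMIs in the cold libraries against 318.1 and 322.4 in the RT libraries, so the groups overlapped. A Defb1-led cluster held most of the class in both cold libraries and in RT 2, and Fgb- and Cenpf-led clusters in RT 1. Red blood cell genes in this class summed to 340.5 and 208.7 CPM in the cold libraries against 31.6 and 29.7 in the RT libraries, and their part was not tested. In luminal alveolar progenitors, the precursors of milk-producing cells, 0 of 74 members tested were called (3.19% of all genes), and 1 had an unadjusted p under 0.05 (15.3% of all genes). The median was -0.24, the lowest of the 10 classes, with 60 of 74 below 0 (51.5% of all genes). All 11 complex IV members tested there lay below 0 (median -0.39), with both cold libraries below both RT libraries for 7 (18.2% of all genes). The median cell of this class held 3383.0 and 4036.0 UMIs in the cold libraries and 8358.0 and 11208.0 UMIs in the RT libraries, and the part of this gap was not tested.

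Among vessel cells, the pericyte/smooth muscle class gave the highest median, 0.23, with 60 of 75 above 0 (49.8% of all genes). There, 0 of 75 members tested were called (0% of all genes), and 2 had an unadjusted p under 0.05 (6.5% of all genes). Its summed level was 302.4 and 293.3 per 10000 UMIs in the cold libraries against 292.4 and 246.5 in the RT libraries, and RT 2, with 24 cells, was the low one. In vascular endothelial cells, 0 of 75 members tested were called (0.779% of all genes), and 3 had an unadjusted p under 0.05 (12.4% of all genes), with a median of 0.04. Fold changes ran from Cox7a2l at -0.35 to Ndufs1 at 0.53 on the log2 scale. Red blood cell genes in endothelial cells summed to 1773.7 and 382.5 CPM in the cold libraries against 6803.8 and 368.7 in the RT libraries, high in RT 1.

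In macrophages/monocytes, 0 of 77 members tested were called (0.174% of all genes), and 5 had an unadjusted p under 0.05 (14% of all genes), with a median of 0.08. Fold changes ran from Cox7a1 at -0.71 to Cox6b2 at 1.56 on the log2 scale. The clusters that make up the class differed between the groups: the Ccl8-led cluster had 69 and 67 cells in the cold libraries against 592 and 324 in the RT libraries, and the Lyz1-led cluster 120 and 72 cells in the cold libraries against 273 and 198 in the RT libraries. In dendritic cells, 0 of 75 members tested were called (0.219% of all genes), and 6 had an unadjusted p under 0.05 (9.52% of all genes), all 6 lower in the cold. The median was -0.13, with 62 of 75 below 0 (49.4% of all genes), and the summed level was 159.3 and 160.0 per 10000 UMIs in the cold libraries against 177.5 and 170.6 in the RT libraries.

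In T cells, 0 of 74 members tested were called (1.89% of all genes), and 5 had an unadjusted p under 0.05 (18.8% of all genes), with a median of -0.02. In NK cells, 0 of 74 members tested were called (1.05% of all genes), and 3 had an unadjusted p under 0.05 (12.9% of all genes), with a median of 0.05. In B cells, 0 of 74 members tested were called (0% of all genes), and 1 had an unadjusted p under 0.05 (5.1% of all genes), with a median of 0.01. In each of the 10 classes the share of members with an unadjusted p under 0.05 was below the share of all genes. Red blood cell genes summed to 7.29 and 304.1 CPM in the cold libraries against 3120.6 and 2.20 in the RT libraries in T cells, high in RT 1, and to 14.96 and 4796.6 CPM in the cold libraries against 2513.2 and 7593.6 in the RT libraries in B cells, low in cold 1. Their part in these results was not tested. Within B cells, a Mef2b-led cluster had 264.6 member UMIs per 10000 UMIs over the 4 libraries together, against 135.4 in the Igkc-led cluster. The Mef2b-led cluster gave 0.17% and 1.5% of kept UMIs in the cold libraries against 0.78% and 0.22% in the RT libraries. All B cells gave 1.5% and 3.6% in the cold libraries against 3.2% and 1.9% in the RT libraries. The part of this mix was not tested.

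**Figure D4:**
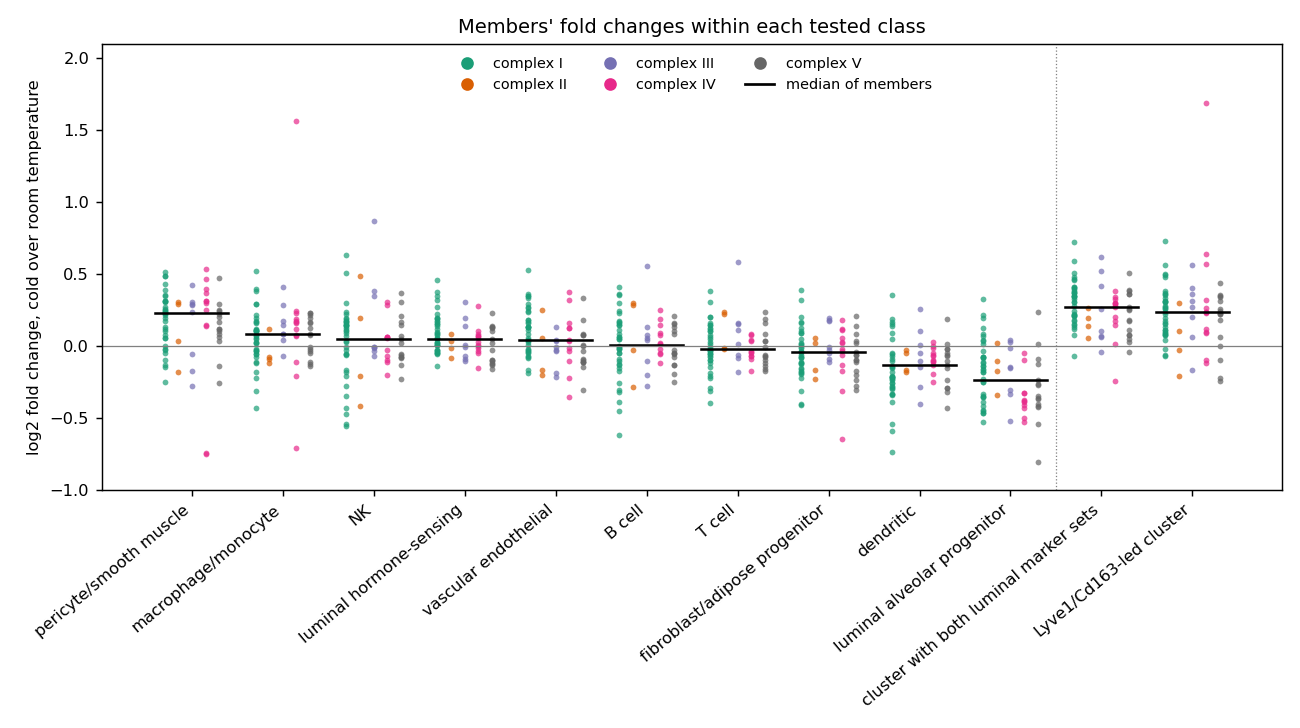
Log2 fold change of cold over RT for each member tested (points, coloured by complex), by cell class, with medians as bars. Medians of the 10 classes run from -0.24 in luminal alveolar progenitors to 0.23 in pericyte/smooth muscle cells, and the added clusters stand at 0.27 and 0.23.

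The median log2 fold change of complex I members ran from -0.22 in the dendritic class to 0.23 in the pericyte/smooth muscle class. Ndufa4 had the most unadjusted differences of any member, 5 of its 10 class tests, all lower in the cold, and in 7 classes both cold libraries lay below both RT libraries. In dendritic cells it had 208.0 and 197.6 CPM in the cold libraries against 361.7 and 317.0 in the RT libraries (log2 fold change -0.74, SE 0.15, edgeR adjusted p = 0.145). In fibroblasts it had 241.1 and 263.1 CPM in the cold libraries against 317.1 and 375.9 in the RT libraries (log2 fold change -0.41, SE 0.12, edgeR adjusted p = 0.147). Macrophages/monocytes had 255.1 and 235.7 CPM in the cold libraries against 318.4 and 362.1 in the RT libraries, and T cells 356.8 and 432.7 CPM in the cold libraries against 472.1 and 514.9 in the RT libraries. In luminal hormone-sensing cells, where Ndufa4 was highest, the groups overlapped, with 1060.1 and 1044.2 CPM in the cold libraries against 989.6 and 1054.3 in the RT libraries and a 95% interval of the log2 fold change from -0.27 to 0.44.

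Ndufv1, the subunit that binds NADH, lay above 0 in 9 of 10 classes, with both cold libraries above both RT libraries in 7. In fibroblasts it had 79.6 and 71.02 CPM in the cold libraries against 59.2 and 59.9 in the RT libraries (log2 fold change 0.39, SE 0.12, edgeR adjusted p = 0.164). In macrophages/monocytes it had 60.8 and 50.3 CPM in the cold libraries against 38.2 and 41.4 in the RT libraries (log2 fold change 0.52, SE 0.17, edgeR adjusted p = 0.247). Ndufs1, the largest subunit of the electron input arm, had 56.4 and 49.6 CPM in the cold libraries against 32.2 and 42.2 in the RT libraries of the endothelial class (log2 fold change 0.53, SE 0.22, edgeR adjusted p = 0.393), and its groups overlapped in fibroblasts and luminal hormone-sensing cells. Ndufa1, an accessory subunit, had 281.8 and 284.1 CPM in the cold libraries against 175.9 and 251.4 in the RT libraries of the luminal hormone-sensing class (log2 fold change 0.46, SE 0.16, edgeR adjusted p = 0.431). Ndufc1 had 96.6 and 92.6 CPM in the cold libraries against 119.4 and 140.5 in the RT libraries of the fibroblast class (log2 fold change -0.40, SE 0.12, edgeR adjusted p = 0.143).

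In complex II, log2 fold changes in luminal hormone-sensing cells ran from -0.08 for Sdhd to 0.08 for Sdhc. Sdha, the catalytic flavoprotein, had 126.1 and 127.4 CPM in the cold libraries against 122.5 and 141.5 in the RT libraries of that class, with a 95% interval from -0.30 to 0.27. In fibroblasts the range was -0.23 for Sdhc to 0.06 for Sdha. Sdhb, the iron-sulphur subunit, had 79.1 and 68.8 CPM in the cold libraries against 69.2 and 82.9 in the RT libraries of the fibroblast class, so the groups overlapped. The median log2 fold change of complex II members ran from -0.14 in the luminal alveolar progenitor class to 0.16 in the pericyte/smooth muscle class.

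In complex III, Uqcrc1, a core subunit, had an unadjusted p under 0.05 in 4 immune classes, each time higher in the cold and without overlap. In T cells it had 124.1 and 161.4 CPM in the cold libraries against 83.7 and 96.2 in the RT libraries (log2 fold change 0.58, SE 0.15, edgeR adjusted p = 0.0903), the smallest adjusted p of the 752 tests. In NK cells it had 113.1 and 114.1 CPM in the cold libraries against 67.3 and 61.4 in the RT libraries (log2 fold change 0.87, SE 0.26, edgeR adjusted p = 0.144). B cells had 116.9 and 138.9 CPM in the cold libraries against 84.97 and 94.7 in the RT libraries, and macrophages/monocytes 113.4 and 107.0 CPM in the cold libraries against 79.3 and 90.7 in the RT libraries. In luminal hormone-sensing cells the groups overlapped, with 139.2 and 153.3 CPM in the cold libraries against 159.5 and 136.9 in the RT libraries. The mix within T cells differed too. Their Pclaf-led cluster had 269.4 member UMIs per 10000 UMIs over the 4 libraries together, against 155.3 in the Dapl1-led cluster. The Pclaf-led cluster gave 2.9% and 3.8% of kept UMIs in the cold libraries against 0.58% and 2.2% in the RT libraries. All T cells gave 11.3% and 8.9% in the cold libraries against 3.3% and 8.3% in the RT libraries. The part of this mix in the Uqcrc1 difference was not tested. Uqcrfs1, the Rieske iron-sulphur protein, had 120.6 and 119.1 CPM in the cold libraries against 100.0 and 101.7 in the RT libraries of the macrophage/monocyte class (log2 fold change 0.28, SE 0.13, edgeR adjusted p = 0.392). The median log2 fold change of complex III members ran from -0.15 in the luminal alveolar progenitor class to 0.26 in the pericyte/smooth muscle class.

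**Figure D5:**
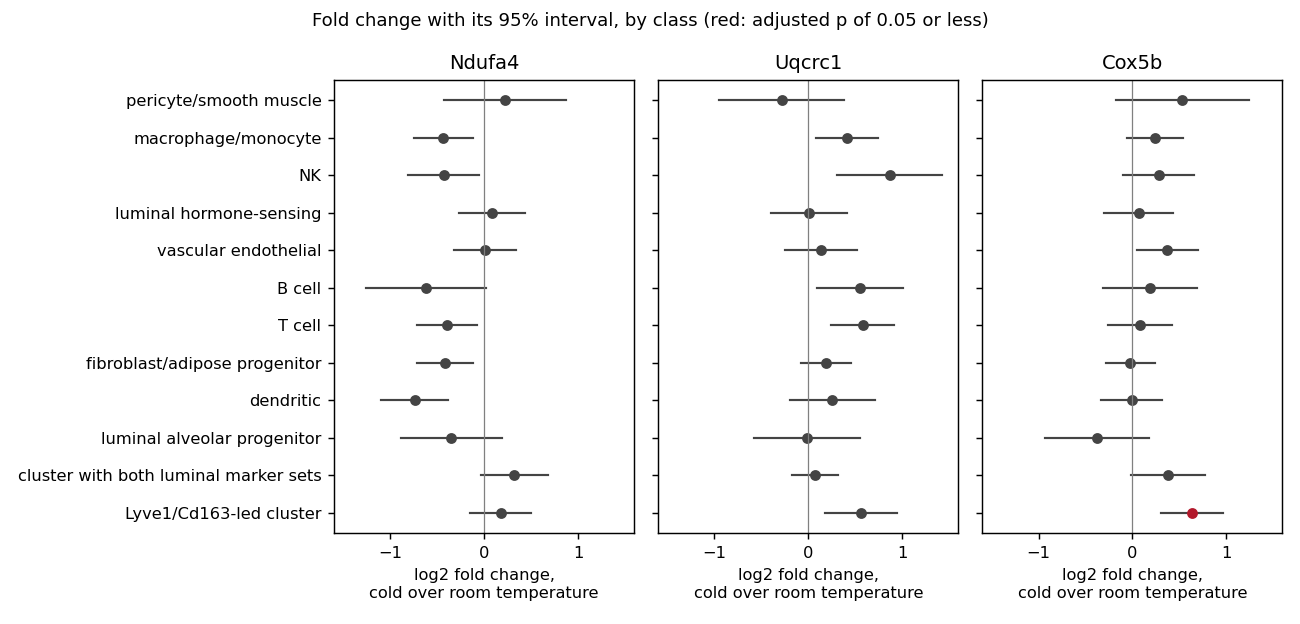
Log2 fold change of cold over RT (x axis) with its 95% interval for Ndufa4, Uqcrc1 and Cox5b, by cell class or cluster (rows). Ndufa4 lies below 0 in 7 of 10 classes and Uqcrc1 above 0 in 8, and Cox5b in the Lyve1- and Cd163-led cluster stands at 0.64 with an edgeR adjusted p of 0.0233.

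In complex IV, Cox5b, a subunit on the matrix side, had 345.6 and 337.6 CPM in the cold libraries against 280.3 and 256.7 in the RT libraries of the endothelial class (log2 fold change 0.37, SE 0.14, edgeR adjusted p = 0.336), and its groups overlapped in luminal hormone-sensing cells and fibroblasts. Cox4i2 in pericyte/smooth muscle cells was lower in both cold libraries and did not pass the test (log2 fold change -0.75, SE 0.30, edgeR adjusted p = 0.705). Cox7a2l had 236.3 and 182.8 CPM in the cold libraries against 363.5 and 376.2 in the RT libraries of the pericyte/smooth muscle class (log2 fold change -0.75, SE 0.26, edgeR adjusted p = 0.67). Endothelial cells had 287.4 and 326.7 CPM in the cold libraries against 383.9 and 412.1 in the RT libraries for the same gene. Cox6b2 had 9.79 and 12.1 CPM in the cold libraries against 4.20 and 3.21 in the RT libraries of the macrophage/monocyte class, from 19 and 19 UMIs against 31 and 17 (log2 fold change 1.56, SE 0.36, edgeR adjusted p = 0.155). Cox4i1 had 1841.9 and 1729.7 CPM in the cold libraries against 1466.7 and 1563.7 in the RT libraries of the luminal hormone-sensing class, without overlap (log2 fold change 0.28, SE 0.15, edgeR adjusted p = 0.513). The median log2 fold change of complex IV members ran from -0.39 in the luminal alveolar progenitor class to 0.31 in the pericyte/smooth muscle class.

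In complex V, Atp5f1, the b subunit of the stalk that holds the catalytic head, lay below 0 in 9 of 10 classes. In luminal alveolar progenitors it had 218.4 and 237.0 CPM in the cold libraries against 414.2 and 332.3 in the RT libraries (log2 fold change -0.81, SE 0.26, edgeR adjusted p = 0.0996). Atp5b, the catalytic beta subunit, had 348.0 and 328.3 CPM in the cold libraries against 288.8 and 317.6 in the RT libraries of the fibroblast class and 780.4 and 827.6 CPM in the cold libraries against 914.4 and 851.6 in the RT libraries of the luminal hormone-sensing class. It leaned up in the first and down in the second, with log2 fold changes of 0.20 and -0.10 that did not pass the test (edgeR adjusted p = 0.421 and 0.823). Atp5e, the epsilon subunit, had 406.4 and 442.2 CPM in the cold libraries against 475.7 and 555.1 in the RT libraries of the fibroblast class (log2 fold change -0.24, SE 0.13, edgeR adjusted p = 0.369). The median log2 fold change of complex V members ran from -0.35 in the luminal alveolar progenitor class to 0.12 in the pericyte/smooth muscle class.

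Outside the named classes, 2 clusters were fitted in the same way after they had been seen. The first, 1185 cells led by Lyve1 and Cd163, met the macrophage list with 9 markers and did not meet the lymphatic list. The naming rule left it outside the macrophage/monocyte class because a leading gene, Lyve1, stands on the lymphatic list. In this cluster Cox5b rose with cold: it had 285.8 and 275.4 CPM in the cold libraries against 194.7 and 172.0 in the RT libraries (log2 fold change 0.64, SE 0.16, edgeR adjusted p = 0.0233). It was 1 of 77 members called (3.13% of all genes), and 18 had an unadjusted p under 0.05, all higher in the cold (14.9% of all genes in either direction). Ndufs8, an iron-sulphur subunit of complex I, had 81.99 and 90.9 CPM in the cold libraries against 60.96 and 33.3 in the RT libraries (log2 fold change 0.73, SE 0.21, edgeR adjusted p = 0.0526). The members' median was 0.23, and their summed level was 161.9 and 149.5 per 10000 UMIs in the cold libraries against 139.2 and 141.9 in the RT libraries.

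The Cox5b call was lost without cold 1 and without cold 2, and the members called also changed without RT 1. The median cell of the cluster held 7941.5 and 7112 UMIs in the cold libraries and 4025 and 2294 UMIs in the RT libraries. Of the 13 mitochondrially encoded subunits, 11 were called lower in the cold (3.13% of all genes were called in either direction). Together the 13 took 212.8 and 221.4 per 10000 UMIs in the cold libraries against 339.2 and 509.5 in the RT libraries. The part of cell depth and of mitochondrial RNA in the Cox5b result was not tested.

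The second cluster, 635 cells with both luminal marker sets, leaned upward as a whole: 73 of 77 members lay above 0 (47.4% of all genes), with a median of 0.27 against -0.02 for all genes. Both cold libraries lay above both RT libraries for 61 members (20.1% of all genes). None of the 77 was called by edgeR (0.059% of all genes), 27 had an unadjusted p under 0.05, all higher in the cold (17% of all genes in either direction), and DESeq2 called 2, Ndufa1 and Uqcrq. Ndufa1 had 265.3 and 291.9 CPM in the cold libraries against 166.5 and 182.9 in the RT libraries (log2 fold change 0.72, SE 0.11, edgeR adjusted p = 0.096). Uqcrq, a small complex III subunit, had 333.0 and 379.9 CPM in the cold libraries against 227.3 and 253.1 in the RT libraries (log2 fold change 0.62, SE 0.12, edgeR adjusted p = 0.122). The members called changed when RT 1 or RT 2 was left out. The share of all genes called in those fits is not given, so that change is not read as being about the members. The median cell held 45706.5 and 39352 UMIs in the cold libraries and 42435 and 41749 UMIs in the RT libraries, more than that of either luminal class in any library, and the part of doublets was not tested.

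Whether the cold effect differed between classes was tested with an interaction term, with the library as a block, for 3 pairs. For luminal hormone-sensing cells minus fibroblasts, 0 of 77 members tested were called (0.0289% of all genes), and 3 had an unadjusted p under 0.05 (9.88% of all genes), led by Ndufv3 (difference 0.71, SE 0.20, edgeR adjusted p = 0.295). For macrophages/monocytes minus fibroblasts, 0 of 77 members tested were called (0.302% of all genes), and 2 had an unadjusted p under 0.05 (13.4% of all genes), led by Cox6b2 (difference 1.76, SE 0.45, edgeR adjusted p = 0.143). For luminal alveolar progenitors minus luminal hormone-sensing cells, 0 of 77 members tested were called (1.19% of all genes), and 2 had an unadjusted p under 0.05 (9.76% of all genes), led by Ndufb9 (difference -0.70, SE 0.27, edgeR adjusted p = 0.32). In that pair 72 of 77 differences lay below 0, with a median of -0.30 against -0.02 for all genes. The median luminal alveolar cell held 3383.0 and 4036.0 UMIs in the cold libraries and 8358.0 and 11208.0 UMIs in the RT libraries. The part of this gap in the differences was not tested. All differences are of log2 fold changes.

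Other genes of the pathway gave 3 calls in the 10 classes, where 0.966% of all class-by-gene tests were called. These calls fell in luminal alveolar progenitors (3.19% of all genes called) and endothelial cells (0.779% of all genes called). Of the 13 mitochondrially encoded subunits, mt-Co1 fell in luminal alveolar progenitors, with 4824.8 and 5891.0 CPM in the cold libraries against 11591.2 and 12550.3 in the RT libraries (log2 fold change -1.27, SE 0.27, edgeR adjusted p = 0.00716). In fibroblasts the list summed to 171.4 and 203.8 per 10000 UMIs in the cold libraries against 246.6 and 297.6 in the RT libraries. There 10 of 13 had an unadjusted p under 0.05 (19% of all genes) and 0 were called (2.34% of all genes). Mitochondrial UMIs were part of the filter on cells. For this list, both cold libraries lay below both RT libraries in 6 of the 10 classes. In T cells, where Uqcrc1 is described above, the list summed to 434.7 and 425.4 per 10000 UMIs in the cold libraries. In the RT libraries it was 514.6 and 530.6, with 6 of 13 at an unadjusted p under 0.05 (18.8% of all genes). In NK cells the list summed to 327.1 and 353.7 per 10000 UMIs in the cold libraries. In the RT libraries it was 396.7 and 442.8, with 7 of the 12 tested at an unadjusted p under 0.05 (12.9% of all genes). In B cells it summed to 578.2 and 498.0 per 10000 UMIs in the cold libraries against 594.5 and 620.9 in the RT libraries, and in macrophages/monocytes to 248.8 and 284.0 per 10000 UMIs in the cold libraries against 304.7 and 342.9 in the RT libraries. In dendritic cells, where Ndufa4 differed most, the groups overlapped. The part of mitochondrial RNA in the Uqcrc1 and Ndufa4 differences was not tested. Of 13 carriers, uncoupling proteins and related genes, Ucp2, a relative of Ucp1, rose in 2 classes. In luminal alveolar progenitors it had 593.4 and 580.8 CPM in the cold libraries against 198.5 and 174.2 in the RT libraries (log2 fold change 1.56, SE 0.26, edgeR adjusted p = 0.000936). In endothelial cells it had 424.4 and 449.1 CPM in the cold libraries against 245.5 and 204.5 in the RT libraries (log2 fold change 0.98, SE 0.15, edgeR adjusted p = 0.0403). None of the 43 assembly factors or 13 regulators of mitochondrial biogenesis was called in a class where it was tested. T cells had the most assembly factors at an unadjusted p under 0.05, 10 of 43 (18.8% of all genes). Ppargc1a, the coactivator known for driving mitochondrial biogenesis in cold-exposed brown fat, had 88 and 68 UMIs in the whole cold libraries against 67 and 54 UMIs in the whole RT libraries.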

How the data were processed

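Per the labels, cells of the stromal vascular fraction were captured on the 10x Genomics platform, 2 libraries per group. The deposited tables hold UMI counts per gene and barcode, made by the authors with Cell Ranger 3.0.2 on mm10 (GRCm38), per the submitters' processing notes, which also name Seurat. Droplet UMI counts carry counting error and free RNA, which were not removed.

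Barcodes were kept where 500 or more genes were detected and the mitochondrial share was below 15%. The cells with the highest simulated-doublet scores, 0.8% per 1000 cells of each library, were removed (74 to 239 per library). The rest were clustered on 2000 variable genes, 30 components and 15 neighbours (Leiden, resolution 1) with Python 3.11.15, scikit-learn 1.9.0 and leidenalg 0.10.2, and named from marker lists. Counts were summed per library and class. The main test was edgeR 4.0.16 (quasi-likelihood, TMM, filterByExpr) in R 4.3.3, on the counts as deposited, with Benjamini-Hochberg adjustment over all genes tested. SEs come from the F statistic and 95% intervals from the t distribution. The fit was also run on simulated counts of the fibroblast and pericyte/smooth muscle classes only, and the outcome is not used as support here. Alternatives were DESeq2 1.42.0, a replicate block, no low-count filter, other cell filters and clusterings, and leaving out each library.

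The members and lists were chosen with earlier results of these data known. Named by rule were members past an adjusted p of 0.05, the ends of each range, tissue-type isoforms and core subunits, and per complex the 2 members most uneven between classes. Other members that are described, such as those with many unadjusted differences, were picked after their values were seen. Promoters came from the RefSeq table of GRCm38.p6, and 15 members without a window there were not analysed.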

Additional observations from a re-analysis of the deposited data

Results flagged for a closer look

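The summed level of the members moved up with cold in pericyte/smooth muscle cells and down in 3 other classes. In each of the 4 classes every cold library lay on its side of every RT library, in places by little. Luminal alveolar progenitors had 162.9 and 186.3 per 10000 UMIs in the cold libraries against 205.2 and 187.8 in the RT libraries. In pericyte/smooth muscle cells cold 2 had 293.3 per 10000 UMIs and RT 1 had 292.4. The log2 ratio of cold over RT in pericyte/smooth muscle cells minus that in dendritic cells was 0.27. Minus that in fibroblasts and adipose progenitors it was 0.22, and minus that in luminal alveolar progenitors 0.31. These differences were not tested. Their pericyte/smooth muscle part leaned on RT 2: the log2 ratio in that class was 0.14 over all libraries and 0.027 without RT 2. The differences themselves are not given without RT 2. The pericyte/smooth muscle class held 50 and 26 cells in the cold libraries against 58 and 24 in the RT libraries. The median luminal alveolar cell held 3383.0 and 4036.0 UMIs in the cold libraries and 8358.0 and 11208.0 UMIs in the RT libraries. The part of this gap in the differences above was not tested.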

How the results depend on the processing

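Over the 10 classes, 122 of 133 alternatives gave 0 members called, as did 18 of 18 for the differences between classes, and no called value changed sign. The share of all genes called under the alternatives is not given, so the counts that follow are not read as being about the members. The replicate block called 1 member each in T cells (Uqcrc1), dendritic cells (Ndufa4) and macrophages/monocytes (Cox6b2), and 4 in the Lyve1- and Cd163-led cluster. Same-numbered libraries deviated together in some classes and apart in others (r from -0.26 to 0.23). In T cells, dendritic cells and macrophages/monocytes r was 0.12, 0.23 and 0.13. With 2 libraries a group, these values cannot decide whether the numbers pair the libraries. Pairing the libraries crosswise, chosen after seeing the data, called 0 members in the B cell and luminal hormone-sensing classes. The other tested classes were paired crosswise too, and their results are not given here. Without the low-count filter the genes called with the replicate block were called again in their 3 classes, 1 each. That setting also called 3 members in the Lyve1- and Cd163-led cluster and 8 in the cluster with both luminal marker sets. DESeq2 called 2 members in each of these clusters. The Lyz1-led macrophage cluster alone, chosen after seeing the data, gave 1 (Ndufa4, lower in the cold).

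With 1 library left out, an arm of 1 library is assumed to vary like the other. The number of members called then ranged from 0 to 2 in dendritic cells (Ndufa4 and Ndufb8 without cold 1), from 0 to 1 in luminal alveolar progenitors (Atp5f1 without RT 2), from 0 to 1 in pericyte/smooth muscle cells (Cox5b without RT 1), from 0 to 4 in the Lyve1- and Cd163-led cluster and from 0 to 52 in the cluster with both luminal marker sets. The log2 ratio of the summed level over all kept cells was 0.047 with a fixed mix of clusters and 0.20 without the cluster with both luminal marker sets, both chosen after seeing the data. With 1 library left out it ranged from -0.21 to 0.15 in B cells, from -0.15 to -0.10 in dendritic cells and from 0.027 to 0.27 in pericyte/smooth muscle cells. With 2 libraries a group and as few as 24 cells of a tested class in a library, small changes could not be detected. The cause of the calls gained or lost under these alternatives was not tested, and the share of all genes called under them is not given.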
